A study of Mus musculus with 9 samples.

Results

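The 10 neuropeptide genes Cck, Sst, Npy, Vip, Penk, Pdyn, Tac1, Cort, Crh and Nts were followed across mouse glioma tissue, glioma cells and 2 kinds of normal brain cells. They were chosen on the level of 1 of them: the Cck transcript was high in glioma tissue with EZH2 knocked out, so differences between the tissue and the cells are given as descriptions without a test. Every non-control probe that carried 1 of these gene names was used, which gave 11 of 55666 probes and 10 of 34732 genes. The tissue group held 3 arrays of brain tumour from mice of the Mosaic Analysis with Double Markers (MADM) background, a genetic system that makes sparse marked mutant cells, with genotype EZH2 knocked-out. The glioma cell group held 2 arrays of brain tumour cells from MADM mice, and the labels give no EZH2 genotype for them. Astrocytes and neural stem cells came from normal, wild type C57BL/6J brain, with 2 arrays each. The labels do not say which other alleles the tumours carry, the age of the animals, or how the cells were isolated or cultured. Nor do they say whether arrays of a group came from separate animals or cultures, so p-values speak only of the spread among these arrays. Whether that spread is technical for glioma cells and neural stem cells is not given and was not tested. Their 2 arrays were over 2-fold apart for 17.0% and 21.1% of all genes measured, beside 18.1% for the astrocyte arrays. The 2 astrocyte arrays were not repeats of 1 sample. Ddx3y, a Y chromosome transcript, was well above background on array 2 only (1.16 against -5.95 on the log2 scale used below). The tissue arrays also differed in sex-linked transcripts, as given below.

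Neuropeptides are made as larger precursors that enter the secretory pathway, are cut by prohormone convertases at pairs of basic residues, are trimmed by carboxypeptidase E and, for many, are amidated before storage in dense-core vesicles. In the brain the precursors are made mainly by neurons: Sst, Vip, Npy and Cort mark classes of inhibitory interneurons, Cck is made by many cortical and hippocampal neurons, and Penk, Pdyn and Tac1 mark projection neurons of the striatum. The released peptides act on G protein-coupled receptors. Transcription of several precursor genes is known to respond to cAMP through the factor CREB.

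RefSeq start-site windows of GRCm38.p6 were held for 8 of the 10 genes, all but Penk and Crh, in 9 windows of 300 bases. The 100 bases before the start of Cck, the gene the group was built on, and of Sst, Vip, Tac1 and Cort are shown because they hold letters known to be bound by CREB, where those of the other windows hold none within that distance. Capitals mark the cAMP response element TGACGTCA, the shorter core TGACG, which reads CGTCA on the other strand, or the E-box, CACGTG. The windows lie at chr9:121495695-121495794 (minus strand), chr16:23890845-23890944 (minus strand), chr10:5639118-5639217 (plus strand), chr6:7554961-7555060 (plus strand) and chr4:149126764-149126863 (minus strand).
Cck: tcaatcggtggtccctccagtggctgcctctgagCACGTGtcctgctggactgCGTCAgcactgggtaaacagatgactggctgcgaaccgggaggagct
Sst: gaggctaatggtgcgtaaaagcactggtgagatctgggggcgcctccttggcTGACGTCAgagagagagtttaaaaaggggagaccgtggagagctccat
Vip: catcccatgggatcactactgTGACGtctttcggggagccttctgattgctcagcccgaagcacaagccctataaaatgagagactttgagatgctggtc
Tac1: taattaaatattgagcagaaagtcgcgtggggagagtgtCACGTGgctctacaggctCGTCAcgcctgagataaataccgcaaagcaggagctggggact
Cort: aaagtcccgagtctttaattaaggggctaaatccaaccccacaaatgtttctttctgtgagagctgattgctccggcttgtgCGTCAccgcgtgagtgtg

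The full element TGACGTCA was found in the Sst window, 48 bases before the start, and in 1.79% of 32851 windows of all genes searched on both strands. The core TGACG, which lies inside the full element, was found in 6 of the 9 windows (those of Cck, Sst, Vip, Tac1, Cort and Nts) and in 20.8% of all windows. An E-box and a core stood together in the windows of Cck (66 and 47 bases before the start) and Tac1 (61 and 43 bases before it), as in 2.11% of all windows. The windows of Npy and Pdyn held none of these motifs. A match describes letters only and does not show that a factor binds there.

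The 60-base probes for Npy and Nts, and 1 of the 2 probes for Pdyn, lie on the part of the message that encodes the peptide and its cutting sites. Capitals mark in-frame codons for pairs of basic residues, lysine or arginine. Convertases cut at such pairs but not at all of them: the first pair of Nts lies inside neurotensin, and the last pair of Pdyn inside alpha-neoendorphin. The reading frame was taken as an open one that holds such pairs and was not checked against a protein sequence. The deposited files place these probes, in mm9, at chr6:49773743-49777505 (plus strand, across an exon junction), chr10:101944967-101945026 (minus strand) and chr2:129513968-129514027 (minus strand).
Npy: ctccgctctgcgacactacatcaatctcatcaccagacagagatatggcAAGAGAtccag
Nts: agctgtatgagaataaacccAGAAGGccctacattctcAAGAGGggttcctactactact
Pdyn: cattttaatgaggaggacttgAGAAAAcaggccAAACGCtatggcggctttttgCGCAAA
The Nts stretch between the capitals encodes the end of neurotensin, and the Pdyn stretch after its middle pair encodes the start of alpha-neoendorphin, an opioid peptide.

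Levels below are processed signals on the log2 scale, taken relative to the array's 75th percentile. A level of 0 is thus the signal that 75% of the non-control spots used lie under. Levels of different genes are not set against each other. On each array 60.1% to 65.7% of spots passed the scanner's test for being well above background, no spot was saturated, and the 75th percentile ran from 467 to 1016 intensity units. Precision is limited by the number of arrays. The 6 cell arrays shared 1 slide and scan and the 3 tissue arrays another, so tissue and slide cannot be told apart. Ezh2 itself read 1.71, 1.40 and 1.30 in the tissue, 2.87 and 3.08 in glioma cells, 0.00 and -0.78 in astrocytes, and 1.99 and 3.21 in neural stem cells. Which part of Ezh2 was deleted is not given, so its 1 probe does not check the knockout. Astrocyte markers were well above background for 11 of 12 genes on both astrocyte arrays, where all 14 microglia and macrophage markers were as well. All 10 neural stem cell markers passed on both neural stem cell arrays, and all 10 oligodendrocyte precursor markers on both glioma cell arrays. These counts do not tell the groups apart. All 10 neural stem cell markers also passed on both astrocyte arrays. On neural stem cell arrays 1 and 2, 12 and 11 of 12 astrocyte markers passed, and 10 and 9 of 10 oligodendrocyte precursor markers. Glioma cell array 1 lacked Sox2, a transcription factor of neural stem cells and many gliomas (-7.71, not well above background, against 2.12 on array 2).

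**Figure D1:**
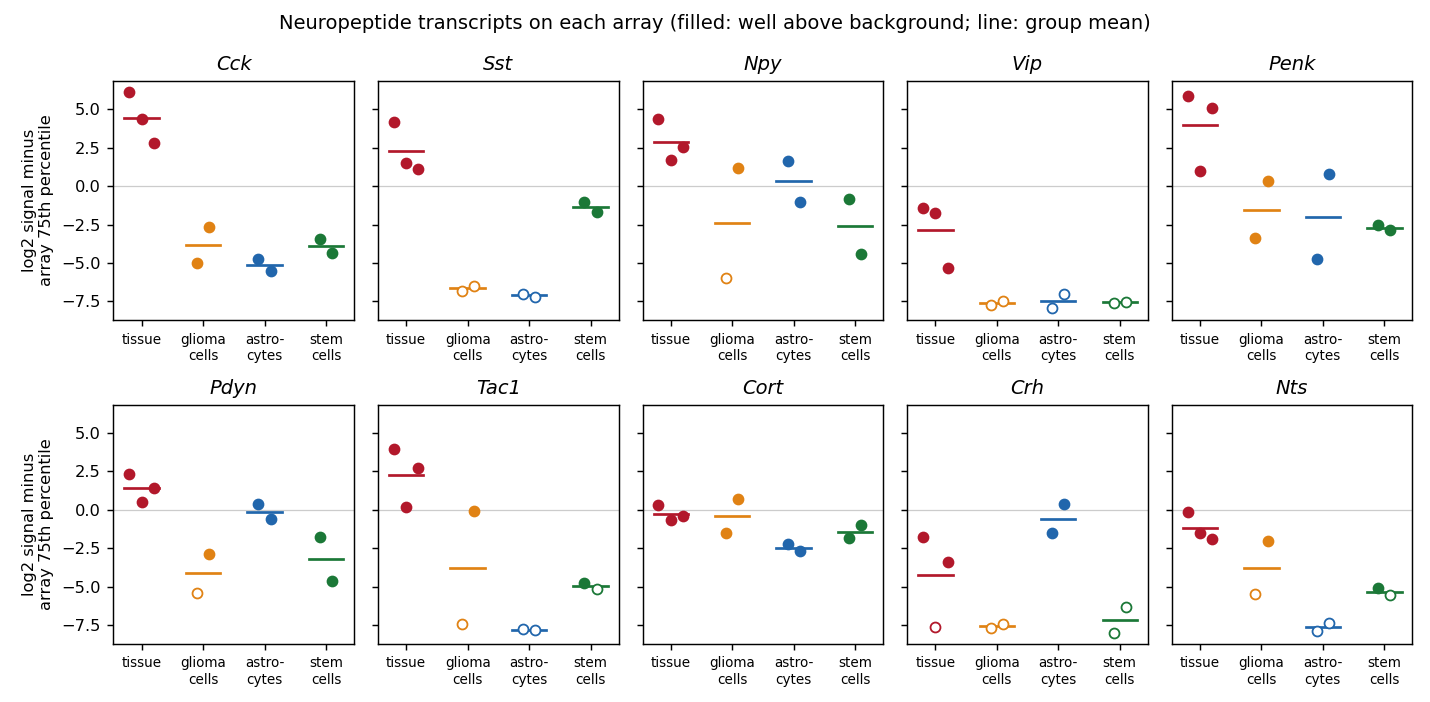
Level of each of the 10 neuropeptide transcripts on the 9 arrays by group (log2 signal minus the 75th percentile of the array; filled points are well above background, open points are not, lines are group means). The 3 tissue arrays lie above all 6 cell arrays for 8 genes, all but Cort and Crh, and the 2 glioma cell arrays lie far apart for Npy and Tac1.

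Cck encodes cholecystokinin, a satiety peptide of the gut and one of the most abundant peptides of the cortex. Its probe lies at mm9 chr9:121398943-121399002 (minus strand). Cck read 6.13, 4.36 and 2.83 on the tissue arrays, -5.03 and -2.69 in glioma cells, -4.77 and -5.51 in astrocytes, and -3.46 and -4.34 in neural stem cells. All 9 values were well above background, and every tissue array stood above every cell array. In signal this was 49439, 16161 and 7238 intensity units in the tissue and between 18 and 78 units in the cells. The tissue mean of 4.44 ± 1.65 (SD, n = 3) was 316-fold above glioma cells (difference 8.30), 765-fold over astrocytes (9.58) and, for neural stem cells, 324-fold (8.34). With 1 array left out these differences ran from 7.13 to 9.47, from 8.73 to 10.38 and from 7.49 to 9.14. With another background correction, normexp on the median signal, chosen after the data were seen, they came to 6.93, 7.68 and 7.03. The arrays of glioma cells and neural stem cells overlapped, and the 2 neural stem cell arrays lay above the 2 astrocyte arrays. A RefSeq gene model, Gm38661, overlaps Cck, and whether the probe also takes up its transcript was not tested.

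The tissue arrays also carried more transcripts of neurons and of several other cell types. Of 12 general neuron markers, 12 were well above background on each tissue array, with a mean level of 3.41, 2.30 and 2.23 there and between -0.83 and 1.30 on the cell arrays. Of these, 6 had all 3 tissue arrays above all 6 cell arrays. Of 10 markers of cortical and hippocampal excitatory neurons, 5 did so, among them Slc17a7, the vesicular glutamate transporter (0.91, -0.39 and -1.49 in the tissue, from -7.53 to -4.87 in the cells). Of 9 striatal projection neuron markers 4 did, and of 13 measured GABA interneuron markers 3 did. Tissue also holds blood and vessels: all 5 measured red blood cell transcripts stood above the cells, with a mean of 2.98, -0.79 and 2.47 against -6.39 to -5.62. Endothelium and pericyte markers stood above all cell arrays for 6 of 10, mature oligodendrocyte markers for 4 of 10 and oligodendrocyte precursor markers for 3 of 10. Astrocyte markers did so for 2 of 12, microglia and macrophage markers for 2 of 14, and neural stem cell markers for 0 of 10. The share over all genes measured was 5.76%. The part of neurons or other cells in the peptide differences was not tested. In whole tissue or a bulk culture, fewer cells of a type and less RNA per cell cannot be told apart.

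**Figure D2:**
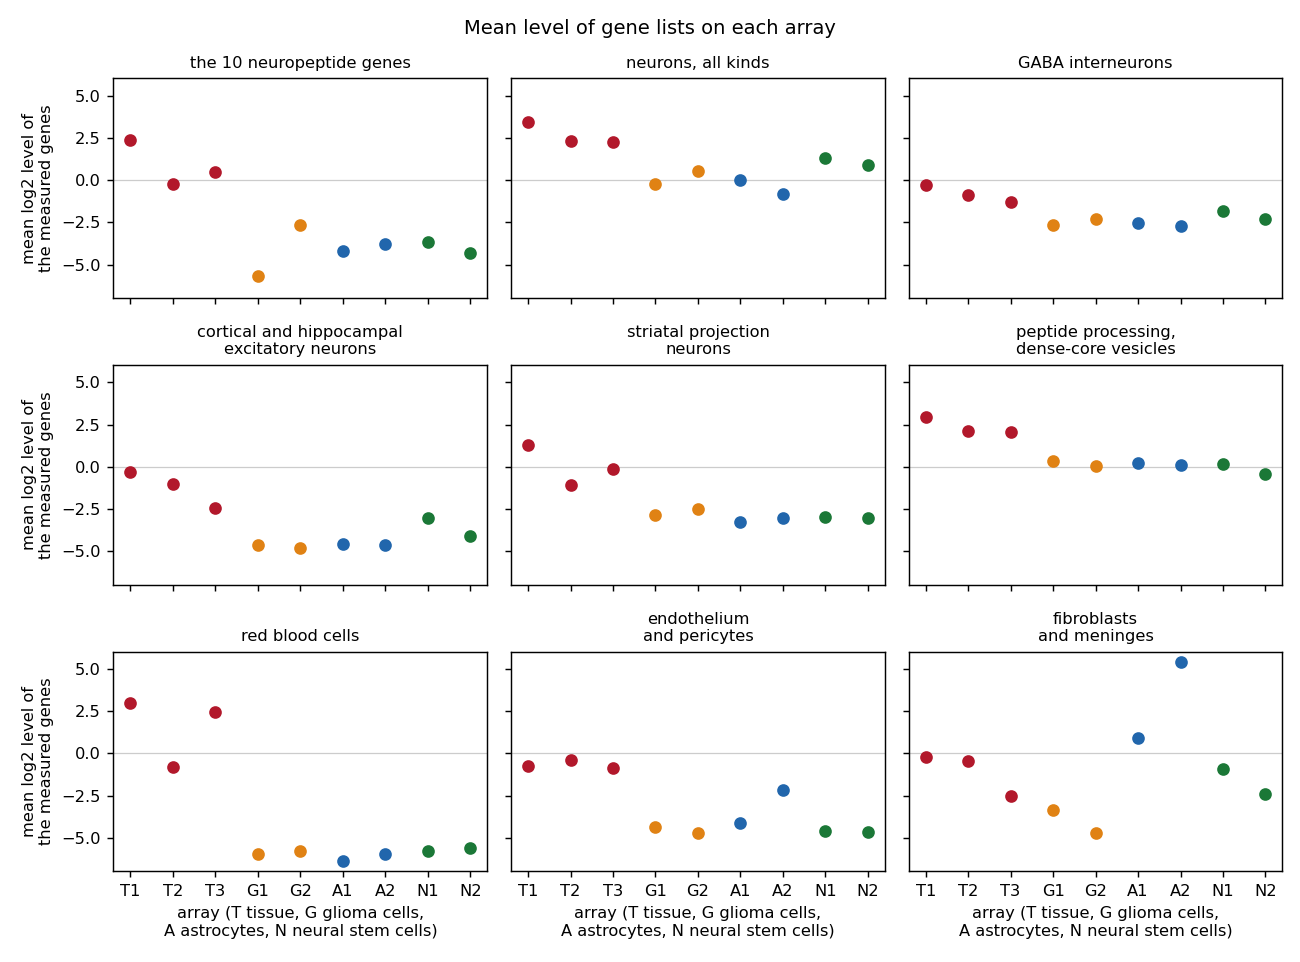
Mean log2 level of the measured genes of 9 lists on each array (T tissue, G glioma cells, A astrocytes, N neural stem cells). The neuropeptide genes average 2.38, -0.23 and 0.47 on the tissue arrays and between -5.66 and -2.68 on the cell arrays, and the neuron lists, red blood cells and endothelium are also higher in tissue.

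All 3 tissue arrays stood above all 6 cell arrays for 8 of the 10 peptide genes, beside 5.76% of 25396 genes measured. The rule used this contrast, so the count is a description. The median difference between the tissue and the mean of the 3 cell groups was 4.58 for the 10 genes and -0.16 for all genes.

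Among the interneuron peptides, Sst encodes somatostatin, which inhibits hormone release and neuronal firing. Its probe (mm9 chr16:23889776-23889835, minus strand) is printed as 10 spots per array. Sst read 4.17, 1.51 and 1.12 in the tissue, -1.01 and -1.67 in neural stem cells, -6.80 and -6.48 in glioma cells, and -6.99 and -7.22 in astrocytes. It was not well above background on any glioma cell or astrocyte array, so 2 groups carried the transcript and 2 did not show it. The tissue mean of 2.26 ± 1.66 (SD, n = 3) stood over neural stem cells by 12.2-fold, and was at least 217-fold above glioma cells and at least 263-fold above astrocytes. Such bounds set the brighter mean against, on each dim array, the gene's own signal or, where higher, the dimmest signal that still passed the test for being well above background.

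Cort encodes cortistatin, a relative of somatostatin that binds the same receptors, and its probe lies at mm9 chr4:148499300-148499359 (minus strand). Its levels were 0.32, -0.68 and -0.42 in the tissue, -1.54 and 0.70 in glioma cells, -2.22 and -2.70 in astrocytes, and -1.83 and -0.99 in neural stem cells. Cort was measured on all 9 arrays, and it was the member with the narrowest difference from glioma cells, 1.12-fold, with overlapping arrays. The tissue was 4.59-fold over astrocytes and, for neural stem cells, 2.22-fold, with no overlap. Unlike Sst, its relative, it was well above background in glioma cells and astrocytes.

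Npy encodes neuropeptide Y, an appetite-stimulating peptide of interneurons and of sympathetic nerves. It read 4.40, 1.69 and 2.52 in the tissue, -6.01 and 1.19 in glioma cells, 1.65 and -1.02 in astrocytes, and -0.83 and -4.41 in neural stem cells. The lowest tissue array, at 1.69, was next to the higher astrocyte array, at 1.65, and only glioma cell array 1 was not well above background. Tissue means were at least 31.9-fold above glioma cells, 5.87-fold over astrocytes and, for neural stem cells, 45.0-fold, and the arrays of the 3 cell groups overlapped with each other. The 2 glioma cell arrays spanned a larger difference than the tissue mean did from glioma cells.

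Vip encodes vasoactive intestinal peptide, made by interneurons that inhibit other interneurons. Its probe was placed by the files at mm9 chr10:4699238-4699297 on the minus strand, while the RefSeq table of GRCm38.p6 has Vip on the plus strand; the builds were not converted. Vip read -1.43, -1.75 and -5.32 in the tissue and between -7.95 and -7.02 on the 6 cell arrays. It was well above background on all 3 tissue arrays and on no cell array. The tissue was at least 6.35-fold above glioma cells, 7.71-fold over astrocytes and, for neural stem cells, 6.25-fold. The order of the 3 cell groups cannot be read, since none of their values was well above background.

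Penk and Pdyn are the opioid precursors of the group. Penk encodes proenkephalin, the source of the enkephalins, and its probe lies at mm9 chr4:4060724-4060783 (minus strand). It read 5.88, 0.99 and 5.06 in the tissue, -3.41 and 0.35 in glioma cells, -4.77 and 0.78 in astrocytes, and -2.52 and -2.88 in neural stem cells. Tissue array 2, at 0.99, lay next to the higher astrocyte array, at 0.78. The tissue mean was 45.5-fold above glioma cells, 62.6-fold over astrocytes and, for neural stem cells, 102-fold, with a tissue SD of 2.62, and the 3 cell groups overlapped.

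Pdyn encodes prodynorphin, the source of dynorphins and neoendorphins. By its brighter probe (mm9 chr2:129512323-129512382, minus strand) Pdyn read 2.33, 0.50 and 1.44 in the tissue, -5.41 and -2.88 in glioma cells, 0.40 and -0.63 in astrocytes, and -1.80 and -4.66 in neural stem cells. Astrocytes stood just under the tissue, which was 2.90-fold higher, and above the other 2 cell groups. The tissue was at least 47.4-fold above glioma cells, of which array 1 was not well above background, and 25.1-fold above neural stem cells. The other probe, whose sequence over the neoendorphin region is printed above, stayed near background on all 9 arrays, tissue included (-7.91 to -5.42). The 2 probes therefore disagree on whether the transcript was detected, and the values of Pdyn rest on the brighter 1.

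Tac1 encodes the precursor of substance P and neurokinin A, peptides of striatal and sensory neurons. Its probe lies at mm9 chr6:7512893-7512952 (plus strand). Tac1 read 3.93, 0.18 and 2.75 in the tissue, -7.46 and -0.11 in glioma cells, -7.78 and -7.81 in astrocytes, and -4.76 and -5.17 in neural stem cells. In glioma cells it was well above background on array 2 only, where it came close to the lowest tissue array, and in neural stem cells on array 1 only. The tissue was at least 268-fold above astrocytes, 33.4-fold above glioma cells and 153-fold above neural stem cells.

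Nts encodes neurotensin, which modulates dopamine signalling. It read -0.15, -1.52 and -1.91 in the tissue, -5.49 and -2.05 in glioma cells, -7.87 and -7.36 in astrocytes, and -5.12 and -5.52 in neural stem cells. Its layout was that of Tac1: well above background on all tissue arrays, on glioma cell array 2, on neural stem cell array 1 and on no astrocyte array. The tissue was at least 24.0-fold above astrocytes, 5.86-fold above glioma cells and 15.8-fold above neural stem cells. Across the 6 cell arrays Tac1 and Nts had a Pearson r of 0.94, and across all 9 arrays of 0.96, a description in which the arrays share slides and most cell values lie near background.

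Crh encodes corticotropin-releasing hormone, which starts the stress hormone cascade, and it had another order of groups. Its probe lies at mm9 chr3:19593482-19593541 (minus strand), and the RefSeq model Gm42189 overlaps the gene. Crh read -1.52 and 0.36 in astrocytes, -1.75, -7.60 and -3.37 in the tissue, -7.71 and -7.43 in glioma cells, and -8.01 and -6.32 in neural stem cells. Astrocytes were the only group in which Crh was well above background on every array, and both astrocyte arrays lay above all other arrays. On tissue array 2 it was not well above background. Astrocytes were at least 8.10-fold above the tissue, and the tissue overlapped with neural stem cells and glioma cells.

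The 3 tissue arrays differed from each other in a way that divided the peptide genes. Tissue array 1 had the highest value for 10 of 10 peptide genes, beside 38.7% of all genes. The lowest value fell on array 3 for Cck, Sst, Vip and Nts, and on array 2 for Npy, Penk, Pdyn, Tac1, Cort and Crh. Vip was 1.25-fold lower on array 2 than on array 1 and 14.8-fold lower on array 3. Penk was 29.7-fold lower on array 2 and 1.76-fold lower on array 3, and Tac1 13.5-fold and 2.27-fold. Cck was 3.43-fold lower on array 2 and 9.85-fold lower on array 3. For Sst, Nts, Cort, Npy and Pdyn, arrays 2 and 3 differed by less than 2-fold (1.31-fold, 1.31-fold, 1.20-fold, 1.79-fold and 1.93-fold), so their side is not settled by these values.

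Neuron markers divided the same 3 arrays. All 9 striatal projection neuron markers were lowest on array 2, for example Drd1, the D1 dopamine receptor (-0.48, -3.69 and -2.04). All 10 excitatory neuron markers of cortex and hippocampus were lowest on array 3, for example Slc17a7. Arrays 2 and 3 differed by less than 2-fold for the striatal markers Drd2, Gpr6, Rgs9, Pde10a and Bcl11b (1.16-fold, 1.15-fold, 1.47-fold, 1.47-fold and 1.76-fold). They did so for the excitatory markers Rasgrf2 and Emx1 as well (1.07-fold and 1.90-fold). The side of these markers is thus not settled by these values. The striatal list averaged 1.31, -1.09 and -0.10, and the excitatory list -0.31, -1.03 and -2.47. Over all genes, 38.4% were lowest on array 2 and 31.8% on array 3. GABA interneuron markers were mixed, with 7 of 13 lowest on array 2 and 5 on array 3. Red blood cell transcripts were lowest on array 2 for 5 of 5. Fibroblast and meningeal markers were lowest on array 3 for 9 of 9. Sex-linked transcripts also set array 1 apart: Xist read 0.20 there and -7.61 and -7.73 on the others, and Ddx3y, from the Y chromosome, -7.47 against 0.07 and -1.75. The part of the sampled region, of sex or of cell content in these differences was not tested.

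**Figure D3:**
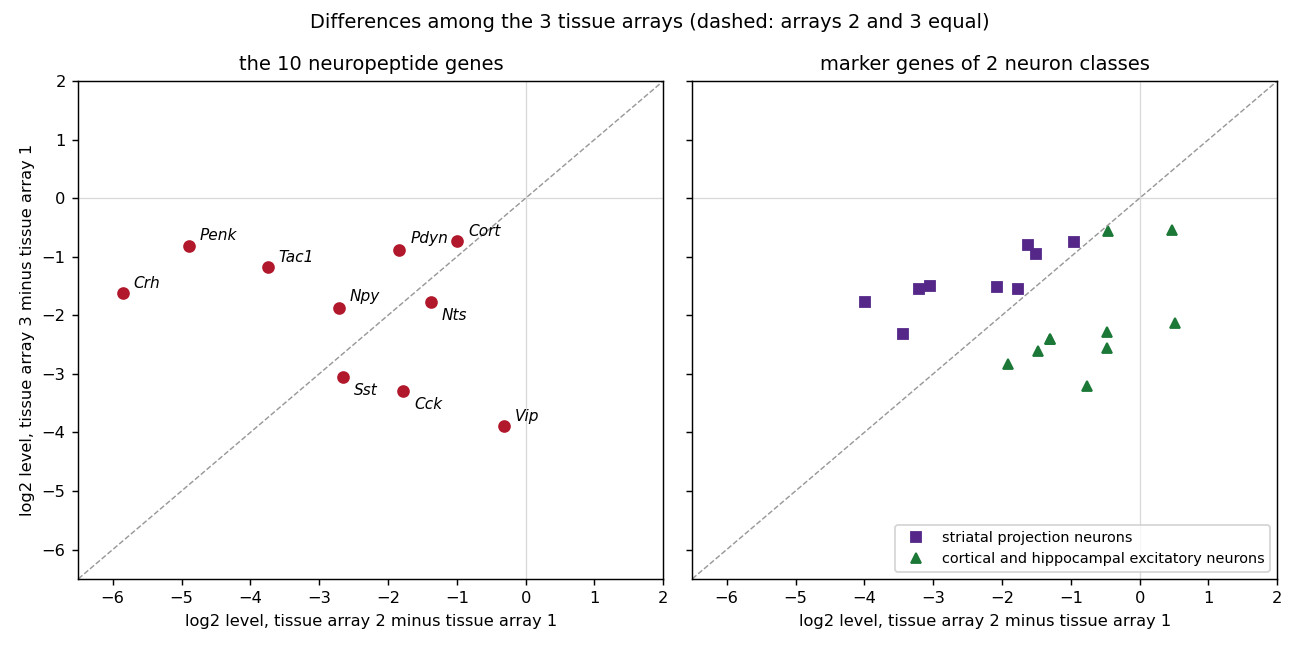
Difference of tissue array 2 (horizontal axis) and tissue array 3 (vertical axis) from tissue array 1, in log2 units, for the 10 neuropeptide genes (left) and for 9 striatal and 10 excitatory neuron markers (right). Penk, Tac1 and Crh lie far above the dashed line of equality, on the side of the striatal markers, and Vip and Cck lie below it, on the side of the excitatory markers.

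Replicates of the glioma cells were also uneven for these genes. The 2 glioma cell arrays differed by over 2-fold for 7 of 10 peptide genes, beside 17.0% of all genes, with a median gap of 2.44 against 0.34. Array 2 had the higher value for each of the 7 that differed. The astrocyte arrays differed by over 2-fold for 4 of 10 (18.1% of all genes), and the neural stem cell arrays for 3 of 10 (21.1%). The count in neural stem cells is near the share of all genes, and it includes Crh, which was not well above background on either array. Among tissue arrays, 1 and 2 did so for 8 of 10 (19.6%), 1 and 3 for 7 (16.3%), and 2 and 3 for 5 (17.1%). Beside Sox2, glioma cell array 1 also differed from array 2 in Ntsr2, a neurotensin receptor of glia (-7.20 against 1.62), and Stmn2, a tubulin regulator of neurons (-7.36 against -4.10). What these gaps owe to the cultures was not tested.

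Comparisons among the cell groups did not enter the choice of genes and were tested with limma in a fit of the 6 cell arrays, with Benjamini-Hochberg adjustment over 24866 genes and a call at an adjusted p under 0.05 and at least 2-fold. A gene entered the test where all arrays of some cell group measured it well above background. This left 7 of the 10 peptide genes: Vip, Tac1 and Nts were not tested. Sst passed only through the neural stem cells and Crh only through the astrocytes, so both had to differ from the groups in which they were dim.

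Sst was higher in neural stem cells than in astrocytes and than in glioma cells. Against astrocytes the log2 fold change was 5.76 (SE 0.34, limma adjusted p = 0.0042), at least 21.7-fold, with both neural stem cell arrays above both astrocyte arrays. It ran from 5.43 to 6.09 with 1 array left out (adjusted p up to 0.0285), and with every gene tested the adjusted p was 0.0058. Glioma cells were lower than neural stem cells by at least 17.8-fold (log2 fold change -5.30, SE 0.34, limma adjusted p = 0.0140). That second call was lost without any 1 array other than glioma cell array 2: the adjusted p was 0.0504 without glioma cell array 1, 0.0596 and 0.0591 without astrocyte array 1 or 2, 0.102 and 0.0607 without neural stem cell array 1 or 2, and 0.0360 without glioma cell array 2. Neuronal transcripts were called beside Sst in neural stem cells against astrocytes for 4 of 12 general neuron markers, beside 7.21% of all genes tested called higher, among them Dcx, which binds microtubules in newborn neurons (log2 fold change 7.61), and Rbfox3, the neuronal nuclear antigen (6.52), and for 2 of 13 GABA interneuron markers in that direction, Gad2, which makes GABA (2.60), and Htr3a, a serotonin receptor channel (3.60). Pvalb, the parvalbumin of fast-spiking interneurons, was lower in neural stem cells (log2 fold change -6.43), and Stmn2 had -3.76 (limma adjusted p = 0.0886). The calls of Dcx, Gad2 and Htr3a were lost without either astrocyte array, that of Htr3a also without either glioma cell array, and that of Rbfox3 without either neural stem cell array (limma adjusted p up to 0.0776, 0.0743, 0.110 and 0.0842 for Dcx, Gad2, Htr3a and Rbfox3). Glioma cells, where Sst was not well above background, also had 3 of the 12 neuron markers called higher than astrocytes (Dcx, Rbfox3 and Map2). That stood beside 9.71% of all genes tested, and 1 marker, Stmn2, was called lower. Between glioma cells and neural stem cells 0 of 12 neuron markers and 0 of 13 GABA interneuron markers were called, beside 1.00% of all genes tested. The part of these transcripts in the Sst signal was not tested.

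Crh was lower in glioma cells than in astrocytes by at least 30.2-fold (limma adjusted p = 0.0078, log2 fold change -6.99 with SE 0.82) and lower in neural stem cells than in astrocytes by at least 29.7-fold (limma adjusted p = 0.0111, with -6.58 on the log2 scale and SE 0.82). With every gene tested the limma adjusted p was 0.0104 and 0.0150. Over the 14 alternatives that tested Crh, the log2 fold change ran from -7.93 to -3.04 in glioma cells and from -7.52 to -3.01 in neural stem cells. Those with a filter, among them each array left out, took Crh in through the astrocytes again, so they are no separate support. The bounds depended on the astrocyte arrays: without astrocyte array 2 they were 15.7-fold and 15.5-fold, and without astrocyte array 1 they were 57.9-fold and 57.0-fold. The brighter array for Crh, astrocyte array 2, also had the higher level of fibroblast and meningeal markers (mean 5.43 against 0.90 on array 1, with 9 of 9 measured markers well above background on both). Endothelium and pericyte markers were higher there too (mean -2.18 against -4.12). On the 3 tissue arrays the fibroblast and meningeal markers averaged -0.23, -0.45 and -2.53, while Crh read -1.75, -7.60 and -3.37. The part of such cells in the Crh signal was not tested. Against neural stem cells, Crh in glioma cells had a log2 fold change of -0.41 with neither group above background.

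Counted together, 1 of 7 tested peptide genes was called between glioma cells and astrocytes (19.4% of all genes tested), 1 of 7 between glioma cells and neural stem cells (1.00%), and 2 of 7 between neural stem cells and astrocytes (15.0%). The median log2 fold change of the 7 was 0.46, 0.03 and -0.71, against 0.18, -0.05 and 0.25 over all genes tested. With so few genes, and Sst and Crh tested because of the group in which they are bright, these shares say nothing particular of peptide genes.

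Cck did not pass in any comparison of cells: the log2 fold change was 1.28 for glioma cells against astrocytes (SE 0.84, limma adjusted p = 0.317), 0.03 for glioma cells against neural stem cells (SE 0.84), and 1.24 for neural stem cells against astrocytes (SE 0.84, limma adjusted p = 0.336). It was called under none of the 15 alternatives in any of them. Pdyn had a log2 fold change of -4.03 in glioma cells against astrocytes (SE 1.24, limma adjusted p = 0.0769), with both glioma cell arrays below both astrocyte arrays, and -3.11 in neural stem cells against astrocytes (limma adjusted p = 0.141). The first passed with another background correction (0.0306) and in a fit of all 9 arrays (0.0386). Cort had 2.04 in glioma cells against astrocytes (SE 0.79, limma adjusted p = 0.125), and 3.16 without glioma cell array 1, where it passed (0.0361). Npy and Penk had standard errors of 2.62 and 2.08, so differences of several-fold could not be shown for them with 2 arrays a group.

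**Figure D4:**
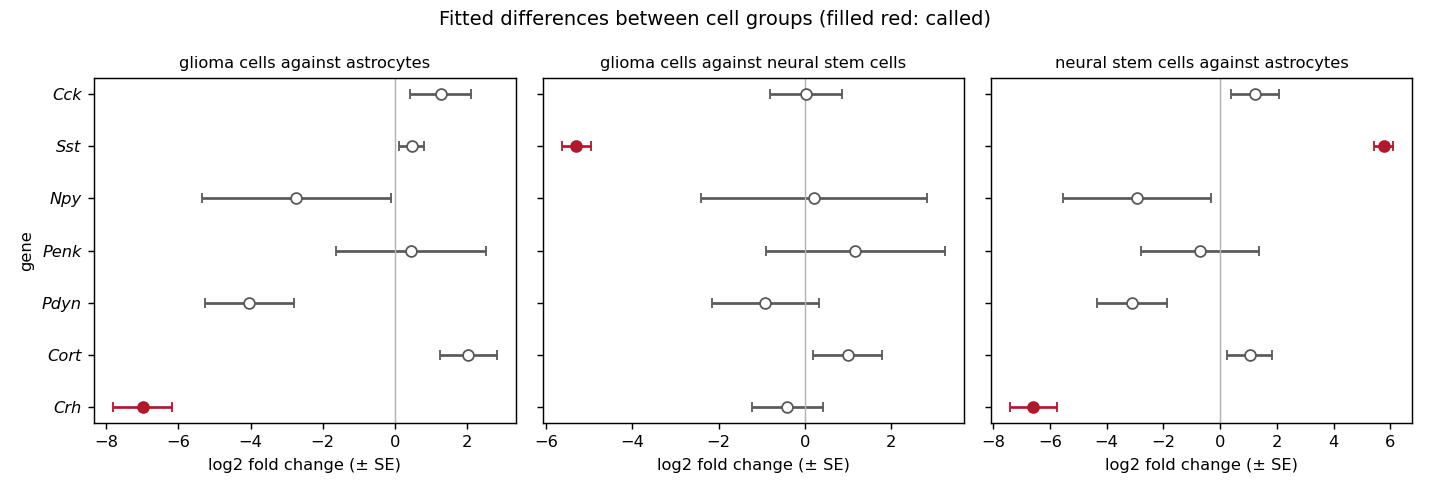
Fitted log2 fold change with its standard error for the 7 tested neuropeptide genes in the 3 comparisons of cell groups; filled red points were called. Sst stands out in both comparisons with neural stem cells and Crh in both with astrocytes, while the intervals of Npy and Penk are wide.

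Tac1 and Nts were left out of the test because no cell group measured them on both its arrays. With glioma cell array 1 left out, or array 2 of the neural stem cells, they entered through a single array on which they were measured, so calls in those fits are not read. Glioma cell array 2 alone stood at least 51.0-fold above astrocytes for Tac1 and at least 13.3-fold for Nts, values with no replicate. With every gene tested, the limma adjusted p between glioma cells and astrocytes was 0.307 for Tac1 and 0.0885 for Nts, and in a fit of all 9 arrays 0.206 and 0.0335. Between neural stem cells and astrocytes it was 0.480 and 0.247 with every gene tested, and 0.373 and 0.151 with all 9 arrays. The level of both genes in glioma cells therefore rests on 1 of 2 arrays.

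The genes that process, sense and break down these peptides were counted from 5 lists. Over all genes tested, 9.71% were called higher and 9.67% lower in glioma cells than in astrocytes, and 7.21% higher and 7.76% lower in neural stem cells than in astrocytes. Of 16 processing and vesicle genes, 15 were tested, and 3 were called higher and 1 lower in glioma cells than in astrocytes. Chga, the vesicle protein chromogranin A, had a log2 fold change of 4.50, Qpct, which caps peptides with pyroglutamate, 4.40, and Cadps2, a priming factor for vesicle release, 2.40, while Scg2, secretogranin II, was at least 300-fold lower. In neural stem cells against astrocytes, Chga (4.25) and Qpct (2.89) were higher and Scg2 (-4.95) and Pam, the amidating enzyme (-2.50), lower. The Scg2 and Qpct calls against astrocytes held in glioma cells with each array left out, the Chga call did not hold when glioma cell array 2 was left out (adjusted p = 0.0559), and that of Cadps2 without glioma cell array 2 or either astrocyte array (adjusted p up to 0.0875). The 4 calls between neural stem cells and astrocytes were each lost on leaving out at least 1 array, either of the neural stem cell pair included, with adjusted p up to 0.134. In the tissue 7 of the 16 stood above all cell arrays, among them Pcsk2, a prohormone convertase, Vgf, a granin, and Ptprn, a vesicle membrane protein, with differences of 3.96, 3.63 and 4.30 from the mean of the cell groups.

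Of 25 receptors, 19 were tested on the cell arrays. In glioma cells against astrocytes, Vipr2, a receptor of Vip, was higher (log2 fold change 2.23), and Tacr1, the substance P receptor, Npy1r and Sstr2 were lower by at least 10.8-fold, 21.4-fold and 4.71-fold. In neural stem cells against astrocytes, Ntsr1 was higher (3.92) and Cckbr (-4.47), Npy1r (-3.79) and Tacr1 (at least 10.3-fold) were lower. Tacr1, Sstr2 and Cckbr passed the filter only through the astrocytes, and Ntsr1 only through the neural stem cells, so they had to differ. Apart from Tacr1, the calls were lost without at least 1 array, Npy1r in glioma cells without either glioma cell array (adjusted p up to 0.0861), Sstr2 and Vipr2 without any of the 4 arrays compared (up to 0.151 and 0.135), Cckbr without any of the 4 compared (up to 0.176), Ntsr1 without either astrocyte array or neural stem cell array 1 (up to 0.307), and Npy1r in neural stem cells without all but astrocyte array 1 (up to 0.137). In the tissue 10 of 22 measured receptors stood above all cell arrays. These 10 hold receptors for cholecystokinin, somatostatin, neuropeptide Y, vasoactive intestinal peptide, enkephalins, neurotensin and the Crh family. Tissue means differed from the mean of the cell groups by 5.72 for Sstr1, 4.44 for Vipr1 and 3.26 for Cckbr. For Cckbr the lowest tissue array, at -1.60, lay next to glioma cell array 1, at -1.66.

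Of 30 genes listed as other neuropeptide precursors, 21 were tested. Glioma cells had 5 of them higher than astrocytes (Grp, Avp, Gnrh1, Oxt and Cartpt) and 3 lower (Nppc, Rln3 and Agrp). Grp, gastrin-releasing peptide, was at least 9.34-fold higher, Oxt, oxytocin, had a log2 fold change of 2.15, and Nppc, a natriuretic peptide, was at least 8.80-fold lower. Grp and Avp passed the filter only through the glioma cells, and Nppc and Rln3 only through the astrocytes, so these 4 had to differ. Of the other 4, the Oxt call held with each array left out, and those of Cartpt, Gnrh1 and Agrp did not (adjusted p up to 0.0899, 0.0743 and 0.166). In neural stem cells Nppc was lower than in astrocytes by at least 8.06-fold, a call lost without astrocyte array 2 (adjusted p = 0.0525). In the tissue 5 of 24 measured genes of this list stood above all cell arrays: Crhbp, Pnoc, Tac2, Cartpt and Trh. Crhbp encodes a protein that binds Crh peptide and is not itself a precursor. Pnoc encodes the nociceptin precursor and Tac2 neurokinin B. Tissue means differed from the mean of the cell groups by 5.61 for Crhbp, 5.26 for Pnoc, 5.17 for Tac2, 4.66 for Cartpt and 2.80 for Trh. The median tissue difference was 0.59 for this list, 2.39 for processing genes and 1.73 for receptors, beside -0.16 for all genes.

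Of 10 tested peptide-degrading enzymes, Mme, which encodes neprilysin and passed the filter only through the astrocytes, so that it had to differ, and Lnpep were lower in glioma cells than in astrocytes (at least 7.73-fold, and -1.64 on the log2 scale) and Mme was lower in neural stem cells (at least 7.84-fold). These calls were lost without either astrocyte array (adjusted p up to 0.176). Of 16 genes of the cAMP and CREB family and of REST, a repressor of neuronal genes, with its partners, Rcor2, a REST corepressor, was higher in glioma cells (3.99) and neural stem cells (5.56) than in astrocytes, in both with each array left out. By the probe brightest on the cell arrays no other gene of that list was called, but probes disagreed for Creb1, which encodes CREB itself: that probe had a log2 fold change of 0.05 in glioma cells against astrocytes, and 1 of its 3 probes was called, with 2.73 (limma adjusted p = 0.0086 in a fit of every probe) and, for neural stem cells against astrocytes, 2.11 (limma adjusted p = 0.0196). Probes that do not stand for their gene were also called lower in glioma cells for Cpe, Npy4r, Tacr2 and Ece2 and higher for Atf1. In the tissue 0 of 10 enzymes and 1 of 16 of the CREB and REST list stood above all cell arrays. Between glioma cells and neural stem cells limma called 0 genes of these 5 lists (with every probe in the fit, 1 of 3 probes of Cadps2, at an adjusted p of 0.0485), while 16 of their 81 tested genes had an unadjusted p under 0.05, beside 3612 of 24866 genes.

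The 9-array profile of Cck was set against those of 15928 other named genes by the root mean square difference after each gene was centred on its own mean. The nearest were Mobp, a myelin protein (1.22), Htr2c, a serotonin receptor (1.25), Vsnl1, a neuronal calcium sensor (1.25), Hbb-bt, a beta globin (1.40), Tmem125 (1.40), Cldn5, a tight junction protein of endothelium (1.42), Slc5a7, the choline transporter (1.45), and Hba-a2, an alpha globin (1.46). Markers of oligodendrocytes, vessels and red blood cells were thus as near to Cck as neuronal genes. Vsnl1 read 1.92, 1.08 and 0.11 in the tissue and from -7.01 to -4.71 in the cells, with the same order of tissue arrays as Cck, and Hbb-bt read 2.68, -1.36 and 2.24 and from -7.75 to -7.15, with another order. Among the other peptide genes Tac1 ranked 43, Sst 78, Vip 81, Nts 118, Penk 159, Npy 425, Pdyn 501, Cort 1481 and Crh 15164. The likeness over 9 arrays mostly reflects 1 step between tissue and cells, which the choice of Cck used.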

How the data were processed

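RNA of 9 mouse samples was hybridised to 1 single-colour Agilent 8x60K array each, from 200 ng labelled with Cy3 per the labels' protocols. Per the file headers, the deposited scanner files give background-subtracted spot intensity on a linear scale, written by Agilent Feature Extraction (10.7.3.1 for tissue arrays, 10.7.1.1 for cell arrays; the submitters' processing notes name 10.7.3.1) with no scaling between arrays. The authors' deposited table holds log2 values that lay within 0.01 of the unscaled log2 processed signal for 99.18% to 100% of probes on an array, with column medians from 5.09 to 6.29, and served as an alternative.

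Outlier spots (96 to 164 per array) and controls were left out and spots of a probe averaged as log2, which dropped 15 of 55681 probes. The 75th percentile of each array was subtracted. Probes measured well above background by all arrays of some group in the fit were tested, and the brightest such probe stood for a gene. The 3 cell groups were compared in 1 limma 3.58.1 fit (lmFit, eBayes, R 4.3.3, two-sided) with 3 residual degrees of freedom. The fit was tested on simulated data first. Files were read with Python 3.11.15, numpy 2.4.6 and pandas 2.3.3, and figures drawn with matplotlib 3.10.9. Genes were named through the RefSeq table of GRCm38.p6: 27312 probes by accession, 3520 by symbol, 551 by synonym and 24272 kept the name in the file. The rule for named genes takes the 10 neuropeptide genes, Ezh2, up to 4 members of each list with the largest called change, and the 8 genes most like Cck. The genes and lists were chosen with earlier results of these data known. Among the tissue values, names beyond that rule (sex-linked transcripts, Ntsr2, single neuron markers) were chosen after their values were seen. So was Ddx3y for the astrocyte arrays.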

Additional observations from a re-analysis of the deposited data

How the results depend on the processing

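Alternatives were quantile normalization, the deposited table, normexp background, no filter, a filter for probes well above background on every array compared, the mean of probes, values raised to the lowest signal well above background, the replicate number as a block, all 9 arrays in the fit, and each array left out in turn. Between glioma cells and astrocytes 4819 genes were called, and 2029 to 4861 with an array left out; of the peptide genes 1 was called, 2 with normexp background, 0 with the stricter filter, 3 with all 9 arrays and 1 to 4 with an array left out. Between glioma cells and neural stem cells 249 genes were called, 129 without a filter, 59 with the stricter filter, 500 with all 9 arrays and 0 to 302 with an array left out (0 without each array except glioma cell array 2, with 3129 to 3767 genes at an unadjusted limma p under 0.05); of the peptide genes 1 was called, 0 with the stricter filter and 0 to 1 with an array left out. Between neural stem cells and astrocytes 3721 genes were called, and 1204 to 2710 with an array left out; of the peptide genes 2 were called, 0 with the stricter filter and 2 to 4 with an array left out. The stricter filter leaves Sst and Crh untested. The counts of 4 include Tac1 and Nts, which entered only through glioma cell array 2. With the probe brightest over all 9 arrays, chosen after the data were seen, 4858, 255 and 3742 genes were called; with every probe in the fit, also chosen then, the CREB and REST list went from 1 to 3 genes with a called probe in glioma cells against astrocytes and from 1 to 2 in neural stem cells against astrocytes. With no scaling (the deposited table) the share of called genes that were higher moved from 50.1% to 30.1% in glioma cells against astrocytes and from 48.2% to 24.1% in neural stem cells against astrocytes, where the median of all genes moved from 0.18 to -0.29 and from 0.25 to -0.19. The Cck difference between tissue and astrocytes, 9.58, came to 7.68 with normexp on the median signal, an alternative added after the data were seen. With the replicate number as a block, 4323, 5 and 3041 genes and 1, 0 and 2 peptide genes were called in the 3 comparisons, and the Sst call between glioma cells and neural stem cells missed the threshold (adjusted p = 0.0507). Deviations of same-numbered arrays correlated at -0.01, 0.05 and 0.12, and the labels state no pairing, so the arrays share only a number. A slide or scan block was not run, since the 6 cell arrays lie on 1 slide, nor was normexp on the mean signal for the tissue, whose files used here hold no mean signal. Values near background limit Vip, Tac1, Nts, Sst and Crh to bounds in part of the groups, and Npy and Pdyn in glioma cells. Cck was well above background on every cell array, on some of them by little. It read -5.51 on astrocyte array 2 and -5.03 on glioma cell array 1, where the dimmest signals that passed were -5.79 and -5.44.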
